A study of Mus musculus with 2 samples.

Results

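The genes encoding the receptors of vascular endothelial growth factor (VEGF), the neuropilin co-receptors and one of their ligands were followed through single retinal endothelial cells of wild-type C57BL/6 mouse pups at postnatal day (P)6 and P15. These 6 genes, Kdr, Flt1, Flt4, Nrp1, Nrp2 and Pgf, were taken by name from the 19813 gene symbols with a row in both count tables (22687 symbols at P6 and 21736 at P15), by matching the Ensembl identifiers of the rows to symbols, and all 6 had a row at each age. Cells were sorted for CD31 and against CD45, with 1 droplet library per age, and the number of pups behind each library was not given in the sources used here. The labels name no allele and no agent for either group, so age is the only difference they give. Since each age is 1 library, a difference of age cannot be told apart from one between the libraries. The unit throughout is the UMI, a sequenced molecule tag, and levels are UMIs of a gene per 1000000 UMIs of the same cells (CPM).

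Kdr (VEGFR2) is the main signalling receptor for VEGF-A on blood endothelium. Flt1 (VEGFR1) binds the same ligand more tightly but signals weakly, and its soluble form acts as a trap, while Pgf (placental growth factor) is a ligand of Flt1 and not of Kdr. Flt4 (VEGFR3) binds VEGF-C and VEGF-D and is known from lymphatic vessels and from sprouting blood vessels of the retina, where tip cells lead a sprout and stalk cells follow. The neuropilins are co-receptors for VEGFs and receptors for class III semaphorins, with Nrp1 known as the arterial and Nrp2 as the venous and lymphatic member.

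The P6 library held 1984 barcodes with a median of 5543.5 UMIs and the P15 library 2141 with a median of 4616, and 7 barcodes occurred in both. Levels by age are over the 1424 P6 and 1644 P15 cells that met the exclusion criteria of the study. Levels by cluster are over the cells for which the study's cluster label was at hand, 1560 at P6 and only 438 at P15, since the copy of the label table used here stops within the P15 cells. With 1 library per age there is no replicate, so no p-value is given, and every interval is an exact 95% interval for counting error only. The clusters were made from the expression of these same cells, and Kdr and Nrp2 helped to name them, so differences between clusters are descriptions and not tests. Pecam1 was found in 90.8% and Cdh5 in 91.2% of labelled P6 cells (92.5% and 85.8% at P15), whereas the lymphatic marker Prox1 was found in 0.192% at P6 and in none at P15, and no barcode was led by lymphatic markers.

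By the GENCODE M21 annotation of GRCm38, Kdr lies on chr5:75932827-75978458 and Flt1 on chr5:147561604-147726011, both on the minus strand. Flt4 lies on chr11:49609263-49652739, Nrp1 on chr8:128358604-128503363 and Nrp2 on chr1:62703285-62818695, all on the plus strand, and Pgf on chr12:85166635-85177790 on the minus strand. Flt1 has 2 coding transcripts of 6, of which the shorter reaches only to 147635159, and counts per gene cannot tell a soluble from a membrane form. Nrp2 overlaps Gm37121, on the same strand, with 56 UMIs at P6 and 80 at P15, and the antisense gene Gm29083, with 6 and 7, and whether the counting used strand is not given in the sources used here.

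The promoters of the receptor pair Kdr and Flt1 and of the neuropilin pair Nrp1 and Nrp2 are shown because the balance within each pair is compared between clusters and ages below. They are RefSeq sequences of GRCm38.p6, from 250 bases before a start site of the gene to 50 after it, given 5′ to 3′ on the strand of the gene. They span chr5:75978406-75978705 on the minus strand for Kdr, chr5:147725962-147726261 on the minus strand for Flt1, chr8:128358823-128359122 on the plus strand for Nrp1 and chr1:62703067-62703366 on the plus strand for Nrp2. The start site used is not always the gene start of the annotation above. The Nrp1 window lies inside the annotated gene, which begins at chr8:128358604. Capitals mark GGAA on either strand (GGAA or TTCC), the core bound by ETS factors, a family with many endothelial members.
Kdr: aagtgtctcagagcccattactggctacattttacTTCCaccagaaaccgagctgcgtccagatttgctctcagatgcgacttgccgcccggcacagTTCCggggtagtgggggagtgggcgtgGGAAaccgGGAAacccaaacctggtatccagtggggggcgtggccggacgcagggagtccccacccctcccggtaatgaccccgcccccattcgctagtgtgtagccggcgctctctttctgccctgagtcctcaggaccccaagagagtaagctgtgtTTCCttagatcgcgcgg
Flt1: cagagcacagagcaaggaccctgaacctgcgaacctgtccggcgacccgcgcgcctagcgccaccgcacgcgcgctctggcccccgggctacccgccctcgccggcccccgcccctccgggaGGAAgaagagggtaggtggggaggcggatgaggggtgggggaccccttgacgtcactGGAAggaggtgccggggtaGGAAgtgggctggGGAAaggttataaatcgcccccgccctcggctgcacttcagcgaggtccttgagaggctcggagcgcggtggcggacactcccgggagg
Nrp1: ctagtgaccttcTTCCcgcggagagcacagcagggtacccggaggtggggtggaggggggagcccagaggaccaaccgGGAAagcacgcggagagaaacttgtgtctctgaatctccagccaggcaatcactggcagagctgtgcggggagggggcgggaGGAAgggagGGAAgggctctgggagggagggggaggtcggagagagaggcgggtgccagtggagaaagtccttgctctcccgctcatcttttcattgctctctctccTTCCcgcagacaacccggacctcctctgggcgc
Nrp2: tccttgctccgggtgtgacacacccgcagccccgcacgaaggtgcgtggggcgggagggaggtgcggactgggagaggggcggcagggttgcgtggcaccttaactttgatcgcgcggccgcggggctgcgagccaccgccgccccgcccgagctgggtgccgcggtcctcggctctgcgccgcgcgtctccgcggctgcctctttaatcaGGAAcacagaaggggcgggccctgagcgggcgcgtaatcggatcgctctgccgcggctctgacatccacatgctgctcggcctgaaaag
The core occurred 5 times in the Kdr and Nrp1 windows, 4 times in that of Flt1 and 1 time in that of Nrp2. It was present in 96.0% of the 32851 promoters of the same length, with a median of 3 per promoter, and 28.6% of them held at least 5. The hypoxia response core GCGTG, searched on both strands, occurred 2 times for Kdr, 1 time for Flt1, 1 time for Nrp1 and 2 times for Nrp2, and 32.4% of all promoters held it. These matches describe the letters of the windows and say nothing of binding.

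The first question was whether the receptors differed between P6, when the superficial plexus is still growing, and P15, when arteries and veins have matured. Flt1 and Nrp2 were higher at P15, Flt4 was lower, and Kdr and Nrp1 differed less. Flt1 was at 616 CPM (598 to 634) at P6 and 959 (936 to 981) at P15, a ratio of 1.56 (1.5 to 1.62). Kdr was at 390 CPM (376 to 404) and 362 (349 to 376), a ratio of 0.930 (0.882 to 0.980). The direction of Kdr turned with the cells used, since the ratio was 1.06 (1.02 to 1.10) over all barcodes and 1.05 (0.972 to 1.13) over labelled cells. Cells with a Kdr UMI made up 79.6% at P6 and 71.2% at P15 against 89.5% and 90.8% for Flt1. Flt4 was at 49.7 CPM (44.8 to 54.9) at P6 and 35.0 (30.9 to 39.5) at P15, a ratio of 0.704 (0.599 to 0.827), and was found in 22.1% and 14.4% of cells.

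Among the co-receptors, Nrp1 was at 208 CPM (198 to 219) at P6 and 236 (225 to 247) at P15, a ratio of 1.13 (1.06 to 1.21). Nrp2 was at 42.1 CPM (37.6 to 47.0) and 65.4 (59.7 to 71.5), a ratio of 1.55 (1.35 to 1.79), with a UMI in 19.7% and 23.2% of cells. Nrp2 thus differed more with age than Nrp1. Pgf, the ligand, had 5 UMIs in 5 cells at P6 and 16 UMIs in 10 cells at P15, which is too few to order the ages (ratio 3.32, 1.16 to 11.6).

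The median ratio over the 9382 genes with at least 100 UMIs in both ages together was 1.09, a shift of 0.12 on the log2 scale, and ribosomal and mitochondrial genes took 20.7% of UMIs at P6 and 12.4% at P15. Relative to that median, Nrp1 was level (1.04), Kdr was lower (0.853) and Flt1 was still higher (1.43). Of those genes, 17.5% were at least 1.5-fold higher at P15 and 10.5% at least 1.5-fold lower. Of the 5 members with enough UMIs, 2, Flt1 and Nrp2, were that much higher and none that much lower. A larger ratio than that of Flt1 was found in 15.1% of genes, a larger one than that of Nrp2 in 15.4%, and a larger one than that of Flt4 in 87.4%, so the members moved within the range of many other genes.

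**Figure D1:**
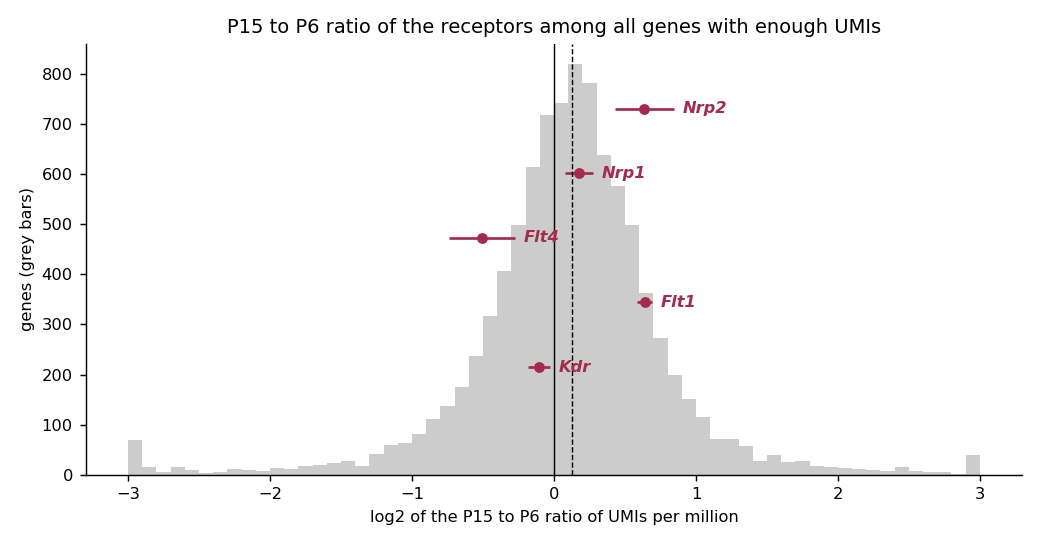
Distribution of the log2 ratio of P15 to P6 CPM over 9382 genes (grey bars, values beyond 3 drawn at the edge) with 5 members as red points at arbitrary heights, horizontal lines giving exact 95% counting intervals. The solid line marks no difference and the dashed line the median of all genes (log2 0.12); Flt1 and Nrp2 lie to the right of both and Flt4 to the left.

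The levels of pericyte genes also differed between the libraries. A UMI of the pericyte and smooth muscle list (9 genes such as Pdgfrb and Rgs5) was found in 9.34% of the P6 and 39.5% of the P15 cells that met the criteria. In the cells without any such UMI, 1291 and 994, a choice of cells made after this difference was seen, the ratio was 1.56 (1.5 to 1.63) for Flt1, 1.65 (1.39 to 1.97) for Nrp2, 0.735 (0.602 to 0.893) for Flt4, 0.902 (0.846 to 0.963) for Kdr and 1.07 (0.988 to 1.17) for Nrp1. Each of these values lay within the interval of the ratio over all cells that met the criteria.

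The next question was where along the arterial to venous tree each receptor was found. At P6 the 5 receptors and co-receptors were highest in Capillary, Cap-Arterial or Arterial cells, and 4 of them were lowest or next to lowest in Primitive cells. Kdr was at 677 CPM (608 to 751) in Capillary cells and 510 (462 to 560) in Cap-Arterial cells, and these 2 clusters were apart in counting error (ratio 1.33, 1.15 to 1.53). Below them, Venous (415), Tip (385), Stalk (355), Cap-Venous (352), Proliferative (349) and Arterial (314) cells followed without any neighbours being apart, and Primitive cells were lowest at 151 CPM (127 to 178). A Kdr UMI was found in 89.3% of Capillary but 62.5% of Arterial cells. At P15 Capillary cells were again highest at 880 CPM (710 to 1077), 1.90-fold (1.45 to 2.49) above Cap-Arterial cells at 462.

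Flt1 was placed further to the arterial side. At P6 it was at 1004 CPM (937 to 1074) in Cap-Arterial, 930 (849 to 1016) in Capillary and 774 (656 to 907) in Arterial cells, and the first 2 were not apart. It was at 613 CPM in Tip, 592 in Cap-Venous, 580 in Venous, 557 in Stalk, 458 in Proliferative and 253 (222 to 287) in Primitive cells. At P15 labelled Cap-Arterial cells were highest at 1675 CPM (1532 to 1827), 1.5-fold (1.23 to 1.85) above Capillary cells at 1116, and each of the 68 Cap-Arterial cells held an Flt1 UMI. Arterial (856), Cap-Venous (854), Stalk (837) and Tip (760) cells followed without neighbours being apart, and Proliferative (550) and Primitive (323) cells were lower in steps that were. With labels predicted for all P15 cells that met the criteria (described below), Cap-Arterial cells were at 1528, Capillary cells at 1510 and Arterial cells at 1259 CPM, so that the first was no longer above the second.

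The Flt4 level was highest in Capillary and Tip cells, and every P6 cluster held it in at least 10% of cells. At P6 it was at 89.9 CPM (66.1 to 120) in Capillary and 75.1 (59.9 to 92.9) in Tip cells, and between 25.3 and 49.2 in the other 7 clusters. It was found in 37.6% of Tip cells, in 27.8% of Proliferative cells and in 26.2% of Capillary cells, which held fewer UMIs each. At P15 the same clusters came first, with 85.1 CPM (38.9 to 162) from 9 UMIs in Capillary and 49.3 (26.9 to 82.7) from 14 UMIs in Tip cells, and no neighbours in the order were apart at either age. In contrast to the other receptors, Flt4 in Primitive cells at P6 (43.5 CPM) was near the mean of all other labelled cells, with a ratio of 0.879 (0.622 to 1.21).

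The neuropilins were ordered differently. Nrp1 at P6 was at 349 CPM (272 to 442) in Arterial, 299 (268 to 333) in Tip, 281 in Capillary and 278 in Cap-Arterial cells, and no neighbours among these 4 were apart. Venous (207), Stalk (192), Cap-Venous (183) and Proliferative (156) cells were lower, and Primitive cells were lowest at 83.9 CPM (66.4 to 105). At P15 Tip cells came first with 345 CPM (280 to 420), whereas the 11 Arterial cells held 10 UMIs, or 204 CPM (97.7 to 375). With predicted labels the 34 P15 Arterial cells were at 344 CPM from 47 UMIs, near Tip cells at 359. Nrp2 at P6 was at 74.6 CPM (53.0 to 102) in Capillary and 50.3 (42.2 to 59.6) in Cap-Venous cells, and in Arterial cells 2 UMIs in 1 of 40 cells gave 10.1 CPM (1.23 to 36.6). At P15 it was above 100 CPM in Capillary (113), Proliferative (110) and Tip (106) cells, at 16.5 (5.36 to 38.5) in Cap-Arterial cells, and absent from the counts of the 11 Arterial cells, which allows up to 75.2 CPM. At P6 Primitive cells were also low (17.0 CPM from 16 UMIs), and Cap-Arterial cells (33.5) were level with Venous cells (31.6).

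**Figure D2:**
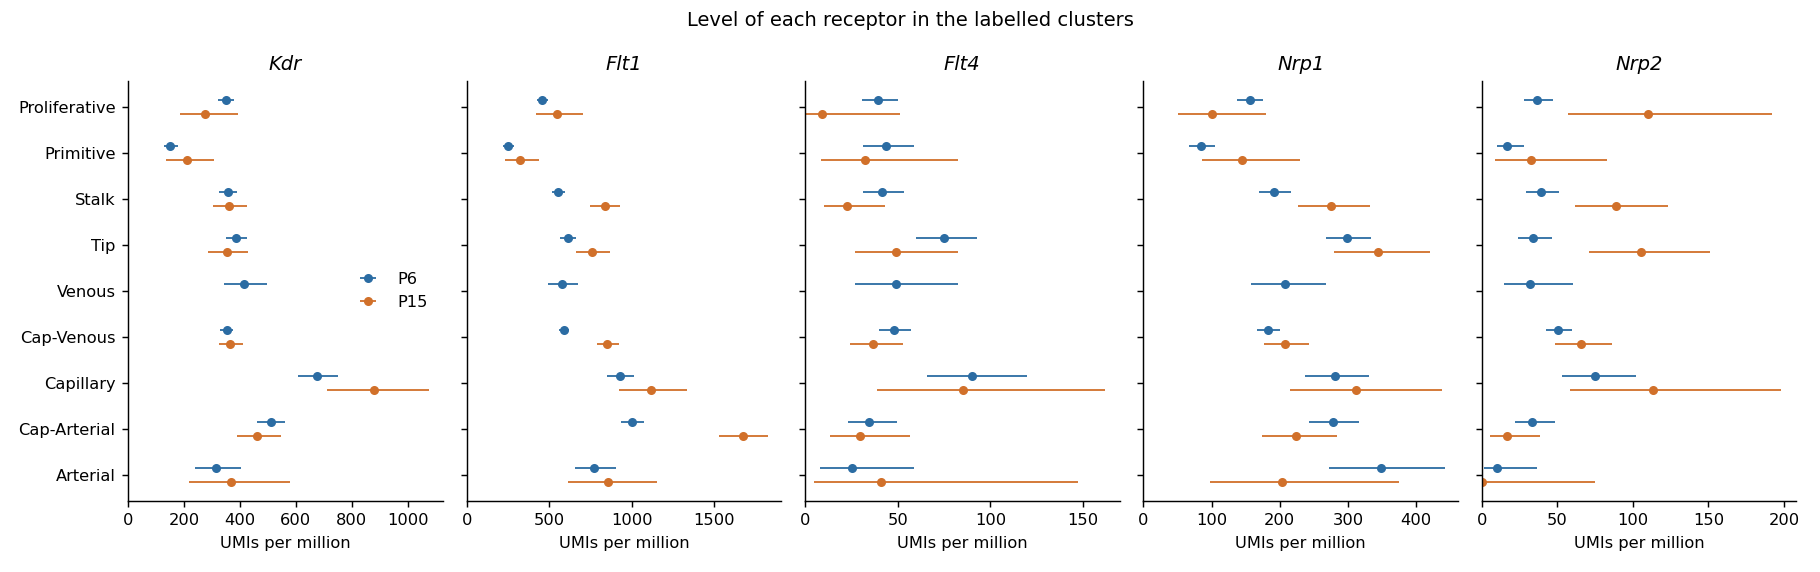
Level of 5 members in CPM (horizontal axes, each from 0) in the 9 labelled clusters at P6 (blue) and P15 (orange), with exact 95% Poisson intervals as bars. The P15 Venous cluster, with 2 cells, is not drawn; Kdr is highest in Capillary cells at both ages and Flt1 in Cap-Arterial cells.

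Capillary cells differed from the rest in depth as well as in these genes. They had the lowest median of UMIs among P6 clusters (3204) and the highest median mitochondrial share (2.51%), and a level in CPM divides by that depth. Against all other labelled P6 cells, Capillary cells were 1.93-fold (1.72 to 2.15) higher in Kdr, 1.93-fold (1.40 to 2.61) in Flt4, 1.98-fold (1.39 to 2.77) in Nrp2, 1.63-fold (1.48 to 1.79) in Flt1 and 1.43-fold (1.2 to 1.69) in Nrp1. Of 8019 genes with enough UMIs, 20.1% were at least 1.5-fold higher in Capillary cells, and 4 of the 5 members were among them. Primitive cells had the highest ribosomal share (25.4%), and against the others Kdr was at 0.385, Flt1 at 0.403, Nrp1 at 0.392 and Nrp2 at 0.404 of the level there. These 4 were at least 1.5-fold lower in Primitive cells, as were 39.4% of genes, and the summed endothelial marker list was also lowest there (5753 CPM against up to 13631 CPM in Capillary cells). The part of depth and ribosomal share in these levels was not tested.

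Tip and Stalk cells were compared because Flt4 and Nrp1 are known from the sprout front. At P6 both were higher in Tip cells and the 2 VEGF-A receptors were nearly level. Flt4 was 1.82-fold (1.29 to 2.59) and Nrp1 1.56-fold (1.32 to 1.83) higher in Tip cells, whereas Kdr (1.08, 0.951 to 1.24), Flt1 (1.10, 0.992 to 1.22) and Nrp2 (0.867, 0.558 to 1.33) had intervals that included 1. Among 3833 genes, 6.68% were at least 1.5-fold higher in Tip cells and 4.93% at least 1.5-fold lower, beside 2 members higher and none lower. At P15, with 46 Tip and 85 Stalk cells, Flt4 was 2.16-fold higher (0.872 to 5.67) from 14 and 9 UMIs, Nrp1 1.25-fold (0.942 to 1.66), and Kdr (0.979) and Flt1 (0.908) were again near 1. Whether the ratios differ between the ages was not tested.

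The arterial side (Arterial and Cap-Arterial cells) was then set against the venous side (Venous and Cap-Venous cells). Flt1, Nrp1 and, less, Kdr were higher on the arterial side at P6, and Nrp2 and Flt4 on the venous side. At P6 the ratio was 1.62 (1.5 to 1.76) for Flt1, 1.57 (1.36 to 1.81) for Nrp1, 1.32 (1.18 to 1.47) for Kdr, 0.682 (0.455 to 0.998) for Flt4 and 0.598 (0.389 to 0.891) for Nrp2. By the study's labels the venous Nrp2 level rested on Cap-Venous cells (50.3 CPM), with Venous cells at 31.6 CPM from 9 UMIs. With predicted labels (described below) the Nrp2 ratio was 0.724 (0.466 to 1.09) at P6 and 0.316 (0.211 to 0.460) at P15. Of 5393 genes, 10.9% were at least 1.5-fold higher on the arterial side and 6.77% at least 1.5-fold lower, beside 2 members higher and 1 lower. At P15 the ratio was 1.83 (1.63 to 2.06) for Flt1 and 1.24 (1.01 to 1.51) for Kdr, while Nrp1 was level at 1.07 (0.804 to 1.41). Nrp2 had 5 UMIs on the arterial and 50 on the venous side, a ratio of 0.219 (0.0681 to 0.546), and Flt4 had 11 and 28 (0.860, 0.386 to 1.78). At that age 8.62% of 2112 genes were at least 1.5-fold higher and 8.1% at least 1.5-fold lower on the arterial side.

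The Kdr difference rested on Cap-Arterial cells. With Arterial cells alone against both venous clusters, the ratio of Kdr was 0.876 (0.667 to 1.13) at P6 and 1.01 at P15, that of Flt1 was 1.31 (1.10 to 1.55) and 1.005, and that of Nrp1 at P6 was 1.88 (1.44 to 2.42). In the same Arterial cells the summed photoreceptor and neuron list reached 1215 CPM against 16.1 CPM in Proliferative cells, and 233 of its 240 UMIs were those of Stmn2. The glia list reached 5056 CPM there, with 690 of its 999 UMIs those of Vim and 3 of its genes at 0, and the part of these genes in the ratios was not tested.

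Since UMIs of both genes of a pair come from the same cells, the balance within a pair does not depend on the depth of a cluster. Flt1 made up 61.2% (60.1 to 62.3) of Flt1 and Kdr UMIs at P6 and 72.6% (71.7 to 73.5) at P15. At P6 the share was 56.8% in Proliferative, 57.9% in Capillary, 58.3% in Venous, 61.0% in Stalk, 61.4% in Tip and 62.7% in Cap-Venous cells, and it was 66.3% (63.6 to 68.9) in Cap-Arterial and 71.2% (64.6 to 77.1) in Arterial cells. At P6 the balance thus tilted to the decoy receptor on the arterial side. At P15 it was 78.4% (75.0 to 81.5) in Cap-Arterial, 70.0% (67.0 to 73.0) in Cap-Venous, 70.0% (65.6 to 74.1) in Stalk and 68.4% (62.9 to 73.4) in Tip cells. In these 4 the P15 interval lay above the P6 share of the same cluster. The share was 70.0% (56.8 to 81.2) in the 11 Arterial and 60.6% (47.8 to 72.4) in Primitive cells, near the P6 values of 71.2% and 62.6%. In the 14 Proliferative cells it was 66.7% (55.9 to 76.3), higher than the P6 share of 56.8%, which lay within that interval. In Capillary cells it was 55.9% (48.9 to 62.7), about the same as at P6, and these cells had the lowest share at P15. With predicted labels (described below) the Arterial share was 73.6% (66.2 to 80.2) at P6 and 85.6% (79.9 to 90.1) at P15. The Primitive share was then 59.8% (53.9 to 65.5) and 66.7% (61.1 to 72.0), so whether these 2 shares stay level with age depends on the labels.

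Nrp1 made up 83.2% (81.4 to 84.8) of Nrp1 and Nrp2 UMIs at P6 and 78.3% (76.5 to 80.0) at P15. At P6 it was 97.2% (90.2 to 99.7) in Arterial, 89.8% (86.3 to 92.7) in Tip and 89.2% (84.8 to 92.7) in Cap-Arterial cells, against 86.8% (76.4 to 93.8) in Venous and 78.4% (75.0 to 81.6) in Cap-Venous cells. At P15 the Cap-Arterial share was 93.2% (84.7 to 97.7), while that of Tip cells was 76.6% (68.3 to 83.6). The share of Cap-Venous cells at P15 was 76.1%. The Proliferative share at P15, 47.8%, rests on 23 UMIs in 14 cells.

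**Figure D3:**
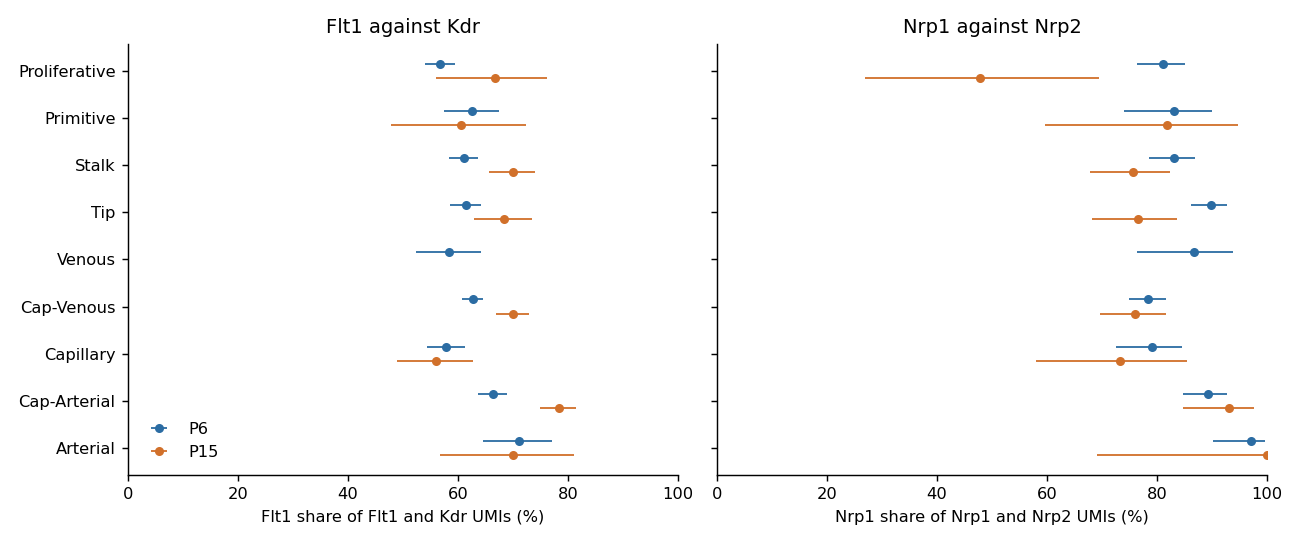
Share of Flt1 among Flt1 and Kdr UMIs (left) and of Nrp1 among Nrp1 and Nrp2 UMIs (right), in percent from 0 to 100, by cluster at P6 (blue) and P15 (orange), with Clopper-Pearson 95% intervals. The Flt1 share is highest on the arterial side at P6, and the Nrp1 share of Tip cells is lower at P15 than at P6.

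Because the ages take different shares of the clusters, the age ratio was also taken within each of the 8 clusters with at least 10 cells at both ages. Flt1 was above 1 in 8 of 8 clusters and its interval excluded 1 in 4 of them, Cap-Arterial (1.67, 1.49 to 1.87), Stalk (1.5, 1.32 to 1.71), Cap-Venous (1.44, 1.31 to 1.58) and Tip (1.24, 1.06 to 1.45). Flt4 was below 1 in 7 of 8 clusters, and no interval excluded 1. Kdr was above 1 in 5 of 8 clusters and its interval excluded 1 in Capillary cells (1.30, 1.02 to 1.64). In Arterial cells the Flt1 ratio was 1.11 (0.766 to 1.56), and whether the clusters differ in it was not tested.

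Nrp2 did not differ evenly. It was 3.11-fold (1.86 to 5.15) higher at P15 in Tip, 3.02-fold (1.48 to 5.66) in Proliferative and 2.26-fold (1.44 to 3.52) in Stalk cells, from 30, 12 and 35 UMIs at P15. In Cap-Venous cells the ratio was 1.30 (0.920 to 1.81) and in Cap-Arterial cells 0.493 (0.149 to 1.29), from 28 UMIs at P6 and 5 at P15. Nrp1 was above 1 in 5 of 8 clusters, with an interval that excluded 1 in Stalk cells (1.43, 1.14 to 1.80). With every cluster weighted as at P6, the ratio of P15 to P6 was 1.39 for Flt1 in place of 1.56, 1.89 for Nrp2 in place of 1.75, 0.672 for Flt4 in place of 0.725, 1.08 for Nrp1 in place of 1.18 and 1.004 for Kdr in place of 1.05. The weighted values are over the 8 clusters and the others over all labelled cells.

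**Figure D4:**
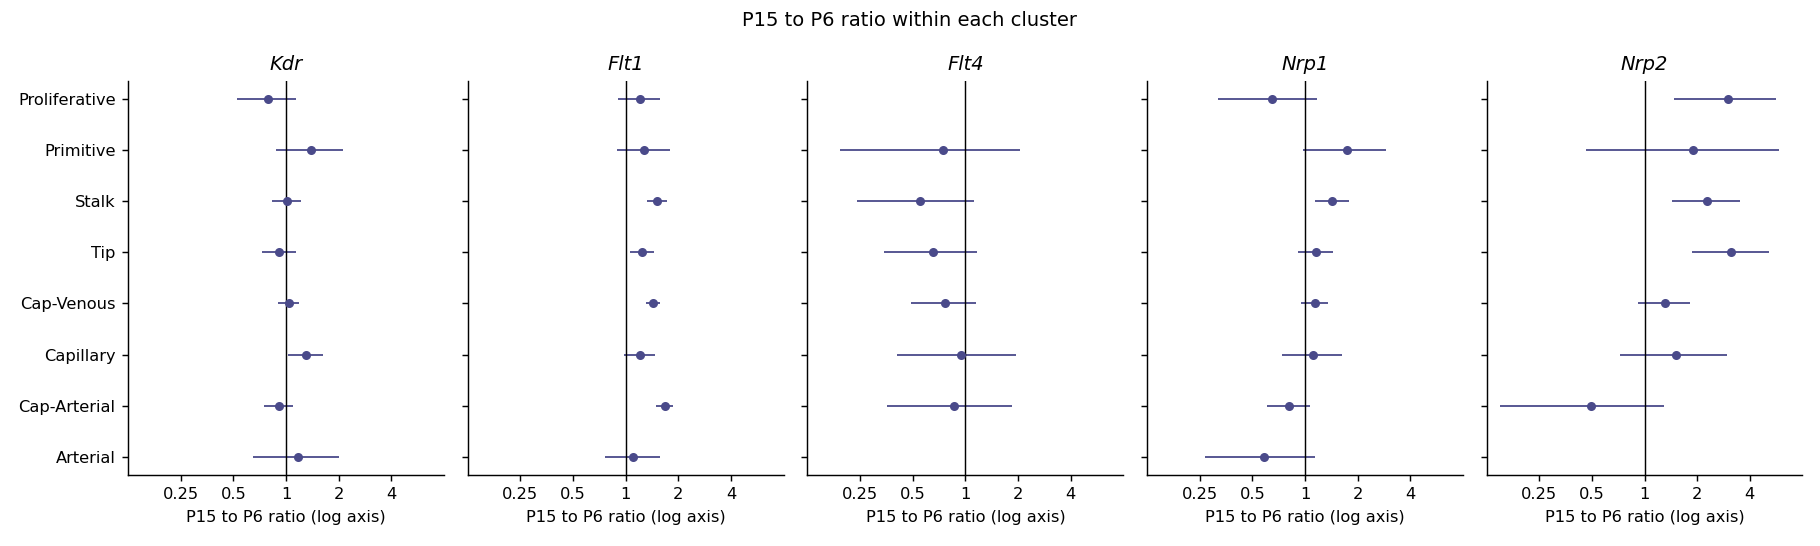
Ratio of P15 to P6 level (log axis, 1 is no difference) of 5 members within each of 8 clusters, with exact 95% counting intervals, drawn where both ages had more than 3 UMIs. All Flt1 points lie above 1, and the Nrp2 points of Proliferative, Stalk and Tip cells lie above 1 with their intervals while that of Cap-Arterial cells lies below.

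Labels of all cells of both ages that met the criteria were predicted from their 15 nearest labelled neighbours, without using the 6 genes. Predicted labels replaced the study's labels even where these were at hand. The P6 groups thus changed too, with 36 predicted Capillary cells against 149 labelled ones. The prediction was chosen after the number of labelled P15 cells was seen. The prediction returned the study's label for 73.1% of labelled P6 and 76.9% of labelled P15 cells, but for only 18.8% of P6 Capillary cells. It was also low for P15 Capillary (42.9%) and P15 Arterial cells (5 of 11, 45.5%), and for P6 Tip (58.8%) and P6 Stalk cells (62.2%). Values by predicted label in these clusters are thus less certain than their counting intervals. Over all cells that met the criteria, grouped by predicted label, Flt1 was above 1 in 8 of 9 clusters and its interval excluded 1 in 7. Arterial cells were among these 7 (1.52, 1.20 to 1.94), with 172 Flt1 and 29 Kdr UMIs at P15. Kdr was below 1 in 7 of 9 clusters, with intervals that excluded 1 in Cap-Venous (0.892, 0.823 to 0.967) and Cap-Arterial cells (0.775, 0.673 to 0.894), and was above 1 with its interval in Primitive (1.73, 1.31 to 2.28) and Capillary cells (1.34, 1.02 to 1.76). Nrp1 was above 1 in 6 of 9 clusters, with intervals above 1 in Primitive (2.18, 1.58 to 3.02) and Cap-Venous cells (1.12, 1.001 to 1.24) and below 1 in Cap-Arterial cells (0.696, 0.576 to 0.841). Nrp2 was 2.22-fold (1.41 to 3.61) higher at P15 in Tip and 1.54-fold (1.26 to 1.89) in Cap-Venous cells and at 0.596 (0.337 to 1.06) in Cap-Arterial cells, while the Proliferative (1.35, 0.638 to 2.62) and Stalk (1.35, 0.887 to 2.06) intervals then included 1. Flt4 was below 1 in 8 of 9 clusters, with intervals that excluded 1 in Tip (0.546, 0.346 to 0.854) and Cap-Venous cells (0.636, 0.496 to 0.813).

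Cells thinned to 3000 UMIs, 1392 at P6 and 321 at P15, were used to ask whether the receptors were found in the same cells. Kdr and Flt1 were found together in 51.2% (48.6 to 53.9) of P6 and 56.7% (51.1 to 62.2) of P15 cells. Within clusters the product of their separate shares gave 50.9% and 56.9%, so the pair was found together as often as the separate shares give. The ratio of observed to product lay between 0.920 (Flt1 with Nrp2 at P15) and 1.28 (Flt4 with Nrp1 at P15) over the 10 pairs at each age, and each interval contained 1. No pair of receptors was thus apart from its product within clusters at this depth. Of the 5 receptors and co-receptors, a P6 cell held UMIs of 2 most often (36.9%), then of 3 (26.1%) or 1 (21.8%), and of none in 7.90%, against 45.2%, 26.8%, 16.2% and 2.18% at P15.

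Genes whose P6 levels over the 9 clusters were most like those of a member were sought among 5870 genes, as a description over 9 clusters that share a library. For Kdr these were Qk (Pearson r 0.98), Sptbn1 (0.98) and Taok1 (0.98), of which Sptbn1 also had the highest r over the 8 P15 clusters (0.94). For Nrp1 they were Slc35a2 (0.99), Dll4 (0.98), the Notch ligand of arterial and tip cells, and Mbnl2 (0.98), with r at P15 of 0.28, 0.87 and 0.88. For Flt1 they were Jcad (0.98), Stx16 (0.98) and Slc38a2 (0.98), with r at P15 of 0.35, 0.68 and 0.89. For Flt4 they were Kcnj2 (0.95), Eif2b2 (0.94) and Lamb1 (0.94), and for Nrp2 Tmem218 (0.99), Synm (0.97) and Usp21 (0.96), of which Eif2b2 (-0.62) and Usp21 (-0.21) went the other way at P15. Among the members, Flt1 was most like Nrp1 (0.91) and Kdr (0.88) at P6, with 0.57 and 0.77 at P15, and Flt4 most like Nrp2 (0.72), with -0.11 at P15.

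Pgf was nearly absent from endothelial cells. Of the 31 Pgf UMIs of the P6 library, 11 were in labelled cells, and 7 of those were in 3 Tip cells, up to 5 in 1 cell, against none in 230 Stalk cells. Of the 53 Pgf UMIs of the P15 library, 30 (56.6%) were in 69 unlabelled barcodes whose pericyte and smooth muscle list outweighed the endothelial list, at 97.0 CPM (65.5 to 139), and 20 of those 69 barcodes (29.0%) held one. Labelled endothelial cells at P15 held 1 Pgf UMI in 438 cells, or 0.467 CPM. Per 1000 UMIs of the endothelial list, pericyte-like barcodes had 25.5 Pgf UMIs and labelled cells 0.0299. At P6, 7 pericyte-like barcodes held 5 Pgf UMIs.

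The receptors were also counted in these barcodes. Since the barcodes were chosen for a marker list that outweighed the endothelial list, a ratio to that list is raised by the choice itself, and the values are a description. Per UMI of the endothelial list, Nrp1 was 4.22-fold (3.26 to 5.38) higher in the P15 pericyte-like barcodes than in labelled endothelial cells, with 75 UMIs and 243 CPM in 69 barcodes. Kdr (1.58, 1.15 to 2.13) and Flt1 (1.58, 1.29 to 1.91) were also above the endothelial ratio, and Flt4 had 2 UMIs. In the 7 P6 pericyte-like barcodes Nrp1 was at 6.01 (2.41 to 12.4), Flt1 at 2.34 (1.01 to 4.61) and Nrp2, from 2 UMIs, at 8.71 (1.05 to 31.7), and in P15 barcodes led by blood and leukocyte genes Flt1 was at 1.28 (1.07 to 1.51). In 53 P6 barcodes whose photoreceptor and neuron list led, Kdr was 4.01-fold (2.90 to 5.42) above the endothelial ratio. It had 43 UMIs in 15 barcodes (28.3%), at most 10 in one, and a level of 80.4 CPM against 368 in labelled cells. Nrp1 was also above the endothelial ratio (2.22, 1.18 to 3.81), while Flt1 was at 1.22 (0.757 to 1.87). Nrp2 had 3 UMIs (2.60, 0.535 to 7.67) and Flt4 had 1. The median depth of these 53 barcodes was 5006 UMIs, near the 5363.5 of labelled cells, of which 81.3% held a Kdr UMI. Vegfa, the ligand of Kdr, had 26 UMIs in the whole P6 library, and 16 of them (61.5%) were in these barcodes. At P15 only 7 such barcodes were found, with 1 Kdr UMI. The part of mixed droplets in these values was not tested.

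**Figure D5:**
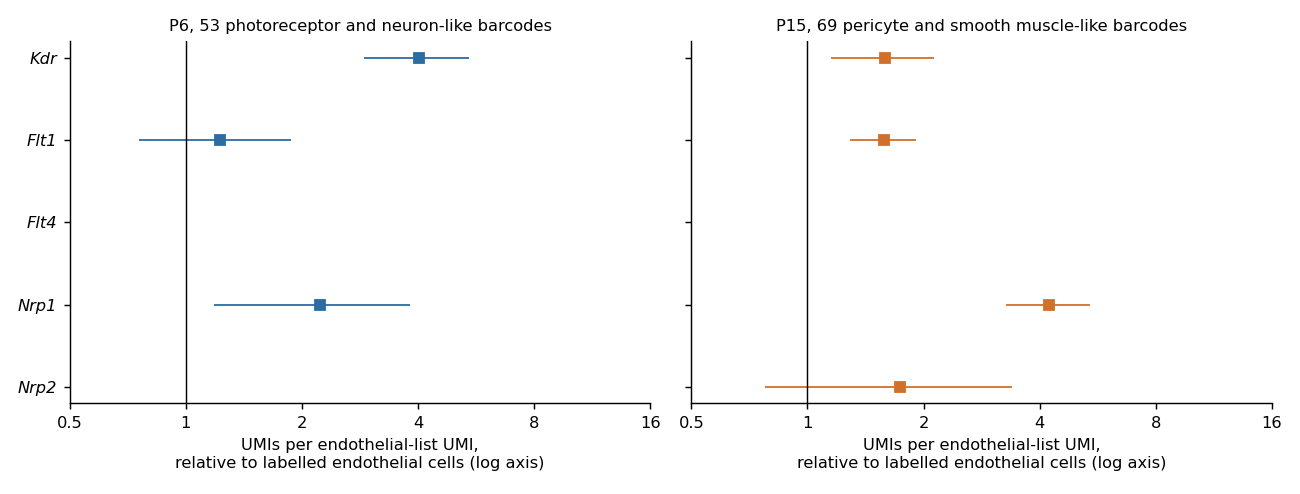
UMIs of each member per UMI of the endothelial marker list in P6 photoreceptor and neuron-like barcodes (left, 53) and P15 pericyte and smooth muscle-like barcodes (right, 69), relative to labelled endothelial cells of the same library (log axis, 1 is the same ratio), with exact 95% counting intervals and no point where there were 3 UMIs or fewer. Kdr on the left and Nrp1 on the right lie near 4. The P15 barcodes may include cells whose study label was not at hand.

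The surrounding pathway was described by 4 lists. Among 9 ligands of these receptors, 3 had at least 100 UMIs in both ages together, and 2 of them were at least 1.5-fold higher at P15, beside 17.5% of all genes. These were Vegfc, the ligand of Flt4 (19.2 to 37.6 CPM, ratio 1.96, 1.59 to 2.40), and Sema3c, a semaphorin that binds neuropilins, at 1.70 CPM from 13 UMIs at P6 and 80.7 CPM from 595 UMIs at P15 (ratio 47.5, 27.6 to 89.7). On the arterial side at P6, Vegfc was 24.2-fold (13.9 to 45.7) and the neuropilin ligand Sema3g 7.08-fold higher than on the venous side. These were 2 of 2 ligands with enough UMIs, beside 10.9% of all genes at least 1.5-fold higher. At P6 the Flt4 ligand was thus higher on the side where Flt4 was lower (0.682, 0.455 to 0.998). The Flt4 ratio at P15 was 0.860 (0.386 to 1.78). With predicted labels it was 0.624 (0.396 to 0.947) at P6 and 1.18 (0.829 to 1.66) at P15. Of the ligands under the minimum, Vegfb (0.501), Sema3f (0.308) and Sema3a (0.138, from 15 and 2 UMIs) had ratios of P15 to P6 below 1 and Vegfd, from 4 and 25 UMIs, one of 6.48.

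Of 14 partners and modulators, 11 had enough UMIs, with 2 higher and 2 lower at P15, beside 17.5% higher and 10.5% lower of all genes. Ptprb, the endothelial phosphatase VE-PTP, was at 258 CPM at P6 and 996 at P15 (ratio 3.86, 3.67 to 4.06), and the tetraspanin Cd151 had a ratio of 1.57 (1.49 to 1.65). Plxnd1, the plexin of the semaphorins, had 0.635 (0.584 to 0.691) and the adaptor Grb10 0.650 (0.575 to 0.733). In Tip against Stalk cells at P6, 2 of 9, Plxnd1 (1.91) and Robo4 (1.51), were higher, beside 6.68% of all genes, and on the arterial side 2 of 10, Efnb2 (4.52), the arterial ephrin, and Ptprb (1.74), beside 10.9%. Of 18 signal carriers, 13 had enough UMIs and 3 were higher at P15, Nos3 (1.66), Mapk3 (1.53) and Rcan1 (1.82, 1.47 to 2.25), a calcineurin regulator induced by VEGF, with none that much lower, which is near the 17.5% of all genes. On the arterial side at P6, 2 of 12, Mapk3 (1.89) and Nck1 (1.71), were higher, beside 10.9% of all genes, and between Tip and Stalk cells none of 9 passed 1.5-fold.

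Of 12 genes known to be induced by VEGF in tip cells, 10 had enough UMIs for Tip against Stalk cells at P6 and all 10 were at least 1.5-fold higher in Tip cells, the largest being Esm1 (16.5), Angpt2 (6.27), Cxcr4 (4.13) and Adm (3.03). Such genes define the Tip cluster and this is no finding. With age they divided, as 3 of 11 were lower at P15, Igfbp3 (0.316, 0.298 to 0.335), Esm1 (0.350, 0.269 to 0.452) and Cxcr4 (0.428, 0.346 to 0.528), beside 10.5% of all genes, and 2 were higher, Adm (5.37, 4.94 to 5.84) and Angpt2 (1.74, 1.41 to 2.15), beside 17.5%. On the arterial side at P6, 3 of 8 with enough UMIs, Igfbp3 (2.64), Cxcr4 (2.48) and Pdgfb (1.82), were higher, beside 10.9% of all genes. Another 3, Apln (0.125), Adm (0.333) and Plaur (0.660), were lower, beside 6.77%. Over genes with enough UMIs, the median ratio of P15 to P6 was 0.854 for the 11 VEGF-induced tip genes, beside 1.09 over all genes. It was 1.17 for the 13 signal carriers and 1.23 for the 11 partners, and the 3 ligands are too few for a median.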

How the data were processed

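Single-cell RNA libraries of sorted CD31+CD45- retinal endothelial cells, 1 per age, were analysed. The deposited values are raw UMI counts, 1 column per barcode, which the authors had not normalized, and the submitters' processing notes name Seurat version 3.0 and the genome build mm10. The aligner and annotation are not given in the sources used here, nor whether strand was used in counting. Rows were matched by Ensembl identifier without version, rows of 1 symbol were added, and rows without a symbol, 0.0145% (P6) and 0.0146% (P15) of UMIs, entered only the total per cell.

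Cells met the study's exclusion criteria where they held 200 to 3500 genes, a mitochondrial share of UMIs up to 5%, and 0 UMIs for each of Cd63, Neurod1 and Hbb-bt. The criterion on RNA counts was read as genes per cell, and the labelled cells include some that fail this reading (1399 of 1560 P6 and 409 of 438 P15 labelled cells passed). Cluster labels came from the study's source data. No doublet caller was run, and barcodes with both Xist and Y-linked UMIs (25 and 24) were left out as an alternative.

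Levels are in CPM, a gene's summed UMIs over all UMIs of the same cells. Intervals for levels are exact Poisson, for shares Clopper-Pearson, and for ratios conditional exact binomial, all at 95%. A gene counted as past the fold at 1.5, with at least 100 UMIs over both groups. No test was run, since each age is 1 library. The ratio intervals were run on simulated Poisson counts. Such counts vary as the intervals assume, so the simulation cannot show how well the intervals cover the counts of these cells. Barcodes of another cell type were unlabelled ones with at least 10 UMIs of a marker list that outweighed every other list. At P15 these may include cells whose study label was not at hand. Predicted labels used 15 nearest neighbours on 13 principal components of 3023 variable genes without the 6 members. Python 3.11.15, numpy 2.4.6, scipy 1.17.1, pandas 2.3.3 and scikit-learn 1.9.0 were used, with matplotlib 3.10.9 for figures.

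The members and gene lists were chosen with earlier results of these data known. Named genes are the 6 members, list genes past 1.5-fold (the 4 largest per direction where more passed), and the 3 genes most like each member with at least 200 UMIs in labelled P6 cells, by Pearson r over the P6 clusters. Totals of UMIs were 13958124 at P6 and 11589641 at P15. Alternatives changed the cells, depth, scaling, weighting of cells, labels and clusters entered.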

Additional observations from a re-analysis of the deposited data

Results flagged for a closer look

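By the study's labels, age ratios of the neuropilins lay above 1 with their intervals in some clusters and below 1 in others, where each interval included 1, and with 1 library per age the difference was not tested. Nrp2 was higher at P15 in Tip (3.11, 1.86 to 5.15), Proliferative (3.02, 1.48 to 5.66) and Stalk cells (2.26, 1.44 to 3.52) and at 0.493 (0.149 to 1.29) in Cap-Arterial cells, where it rested on 28 UMIs at P6 and 5 at P15. With predicted labels, which take in all P15 cells that met the criteria, Tip was at 2.22 (1.41 to 3.61) and Cap-Arterial at 0.596 (0.337 to 1.06), while Proliferative and Stalk intervals included 1. Nrp1 was at 1.43 (1.14 to 1.80) in Stalk cells, against 0.647 (0.319 to 1.18) in Proliferative and 0.583 (0.268 to 1.14) in Arterial cells, from 11 and 10 UMIs at P15, and with predicted labels the Stalk ratio was 0.994 (0.804 to 1.23), that of Proliferative cells 1.19 (0.823 to 1.68), that of Arterial cells 0.959 (0.632 to 1.45) and that of Cap-Arterial cells 0.696 (0.576 to 0.841).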

How the results depend on the processing

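Of 267 values under another setting, 231 stayed within the counting interval of the reported value and 30 lay outside it. Another 6 crossed 1 where that interval excluded 1, and the cause was not tested for any. Where the interval included 1, a value that crossed 1 was counted among the 231 or the 30. For example, the age ratio of Flt1 in Proliferative cells was 1.20 by the study's labels and 0.953 with predicted labels. The ratio of P15 to P6 of Kdr was 1.06 over all barcodes and 1.05 over labelled cells, 0.857 with cells thinned to 3000 UMIs, 0.853 scaled by the median gene ratio and 0.842 scaled without mitochondrial and ribosomal genes, so its direction depends on which cells enter. In the same order of settings where they moved, Flt1 was 1.71 over all barcodes and 1.43 and 1.41 under the 2 scalings, and Nrp1 was 1.27, 1.04 and 1.02, and 1.05 as a mean of CPM over cells. Pgf was 0.410 over labelled cells and 0.357 after thinning, from 1 P15 UMI in the labelled cells. The ratios of Flt4 and Nrp2 stayed within their intervals under every setting tried. Without a minimum of UMIs, 5394 genes were at least 1.5-fold higher (27.8% of 19426) and 3730 lower (19.2%) at P15.

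The Tip to Stalk ratio of Flt1 at P6 was 1.26 after thinning (1.08 to 1.47), and that of Nrp1 at P15 was 1.74 with predicted labels. The arterial to venous ratio of Flt1 at P6 was 1.499 with predicted labels, and without Cap-Arterial cells it was 1.31 at P6 and 1.005 at P15, that of Kdr 0.876 and 1.01, and that of Nrp1 at P6 1.88. With predicted labels, chosen after seeing the data, the age ratio was 0.892 for Kdr in Cap-Venous, 2.33 for Flt1 in Primitive and 1.51 in Capillary, 1.19 for Nrp1 in Proliferative and 0.994 in Stalk, and 1.35 for Nrp2 in Proliferative, 1.35 in Stalk and 3.64 in Capillary cells. After thinning, the Nrp1 share was 90.9% in P6 Primitive, 77.5% in P6 Stalk and 71.4% in P15 Proliferative cells. Thinned to 2000 UMIs, Flt4 with Nrp1 at P6 was at 0.888 of the product. No paired analysis was possible because each age had 1 library. Depth limits Flt4, Nrp2 and Pgf most, which had at most 50 UMIs in any labelled P15 cluster, and among labelled P15 clusters of at least 10 cells the smallest held 11.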

Other observations

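Levels of the other VEGF ligands in endothelial cells were low. Vegfa had 5 UMIs in the P6 and 4 in the P15 cells that met the criteria, and Vegfb had 58 and 28, a ratio of 0.501 (0.307 to 0.799). Vegfd had 4 and 25 UMIs (6.48, 2.24 to 25.6), under the minimum of 100 UMIs. Among semaphorins under that minimum, Sema3f had 37 and 11 UMIs (0.308, 0.142 to 0.618) and Sema3a 15 and 2. Ptprj, a phosphatase that acts on VEGF receptors, had 14 and 57 UMIs (4.22, 2.32 to 8.21), in the same direction as Ptprb. These genes were chosen after their values were seen.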
